A study of Mus musculus with 4 samples.

Results

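The small leucine-rich proteoglycans (SLRPs) are secreted matrix proteins, and 7 of their genes are described here: *Dcn*, *Lum*, *Bgn*, *Fmod*, *Ogn*, *Aspn* and *Prelp*. They were taken by symbol from the 32285 genes counted in each of 4 single-cell RNA sequencing libraries, and all 7 were present in every library. They were chosen as a gene family, with earlier results of these data known. An SLRP carries a curved stack of leucine-rich repeats that binds collagen fibrils. Decorin (*Dcn*) and biglycan (*Bgn*) carry chondroitin or dermatan sulfate chains, whereas lumican (*Lum*) and fibromodulin (*Fmod*) carry keratan sulfate. Asporin (*Aspn*) is close to decorin in sequence but has no such chain, mimecan (*Ogn*, osteoglycin) belongs to a separate class, and PRELP has a basic amino terminus that binds heparan sulfate. In connective tissue, adipose stroma included, these proteins set the width and spacing of fibrils, and several bind growth factors of the TGF-β and BMP families.

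The libraries came from chow-fed male C57BL/6J mice, 1 library per condition, and mouse age and the number of mice per library are not given in the sources used here. In iWAT_DFAT and eWAT_DFAT the cells are de-differentiated fat (DFAT) cells, which grow out of floating inguinal (iWAT) or epididymal (eWAT) adipocytes that attach to the upper wall of a filled flask ("ceiling culture"). In iWAT_ASPC and eWAT_ASPC they are cultured stromal vascular fraction (SVF) cells of the same depots, called adipose stem and progenitor cells (ASPCs) in the study. All cultures were sorted with the dead-cell dye 7-AAD and run with the 10x Genomics 3′ kit. DFAT cells and ASPCs differ in starting cell and in culture method, and these cannot be told apart.

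Cells were barcodes with 5000 to 75000 unique molecular identifiers (UMIs, tags that let each captured RNA be counted once), 200 to 7500 genes and under 10% mitochondrial UMIs. There were 7629 cells for iWAT_DFAT, 6464 for eWAT_DFAT, 7424 for iWAT_ASPC and 6745 for eWAT_ASPC, with medians between 22111 and 27617 UMIs per cell. Any pair of libraries shared 13 to 20 cell barcodes, at most 0.297% of a library. The labelled cell type was checked with 12 ASPC markers such as *Pdgfra* and *Col1a1*: all 12 reached 5 CPM (UMIs of a gene per 1000000 UMIs) in 3 libraries and 11 did in eWAT_ASPC. Their summed level was 8333 CPM in iWAT_DFAT, 3176 CPM in eWAT_DFAT, 9696 CPM in iWAT_ASPC and 8429 CPM in eWAT_ASPC, lowest in eWAT_DFAT. Markers listed for other cell types also differed between the libraries, which does not by itself show that such cells were present. Of the smooth muscle markers, the study names *Acta2* and *Actg2* among the genes of an ASPC subpopulation. The summed level of 9 smooth muscle markers was 713 CPM in iWAT_DFAT, 6839 CPM in eWAT_DFAT, 13867 CPM in iWAT_ASPC and 17799 CPM in eWAT_ASPC, that of 10 adipocyte markers ran from 95.4 CPM in iWAT_ASPC to 2269 CPM in eWAT_DFAT, and that of 11 mesothelial markers from 6.01 CPM in iWAT_DFAT to 187 CPM in eWAT_ASPC. The part of these markers in the results on whole libraries was not tested. Comparisons within ASPC-like cells, with some clusters left out, are given below. With 1 library per condition no test across samples was possible, mouse-to-mouse spread was not measured, and every interval below is a 95% interval for counting error only.

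The 7 genes lie at 4 places in the genome (GRCm38, mm10, GENCODE annotation). *Dcn* (chr10:97479609-97518143) and *Lum* (chr10:97565128-97572703) are neighbours on the plus strand with 47.0 kb between them. *Aspn* (chr13:49544443-49567565) and *Ogn* (chr13:49608046-49624501) lie 40.5 kb apart on the plus strand, with the family gene *Omd* in the gap. *Prelp* (chr1:133910304-133921414, minus strand) and *Fmod* (chr1:134037254-134048277, plus strand) are separated by 116 kb, and *Bgn* (chrX:73483602-73495933, plus strand) lies alone on the X chromosome.

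RefSeq promoter sequences (GRCm38.p6) were at hand for 5 of the 7 genes. *Aspn*, *Ogn*, *Fmod* and *Bgn* had lower levels in DFAT cells than in ASPCs in both depots, *Bgn* with the most even level. The sequences of these 4 genes are shown, and that of *Prelp* is not. Each is the 250 bases before the RefSeq start, which for *Ogn* lies upstream of the start given above, written 5′ to 3′ on the strand of the gene. Capitals mark matches on either strand to the core of the TATA box, written TATAAA, to that of the CCAAT box, or to GGGCGG, the GC box.
Aspn, chr13:49544193-49544442, plus strand: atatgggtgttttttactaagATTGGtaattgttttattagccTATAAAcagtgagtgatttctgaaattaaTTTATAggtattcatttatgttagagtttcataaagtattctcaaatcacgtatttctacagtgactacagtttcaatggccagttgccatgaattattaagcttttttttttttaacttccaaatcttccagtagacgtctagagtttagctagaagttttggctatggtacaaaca
Ogn, chr13:49607765-49608014, plus strand: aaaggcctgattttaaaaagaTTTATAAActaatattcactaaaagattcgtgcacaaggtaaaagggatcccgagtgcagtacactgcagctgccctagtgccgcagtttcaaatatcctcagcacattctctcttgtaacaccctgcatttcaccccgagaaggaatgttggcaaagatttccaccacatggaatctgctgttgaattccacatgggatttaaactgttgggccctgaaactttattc
Fmod, chr1:134037004-134037253, plus strand: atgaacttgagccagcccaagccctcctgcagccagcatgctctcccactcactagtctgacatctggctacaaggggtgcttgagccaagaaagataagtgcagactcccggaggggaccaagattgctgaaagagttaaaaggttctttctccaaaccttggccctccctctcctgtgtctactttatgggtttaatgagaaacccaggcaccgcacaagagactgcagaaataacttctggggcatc
Bgn, chrX:73483351-73483600, plus strand: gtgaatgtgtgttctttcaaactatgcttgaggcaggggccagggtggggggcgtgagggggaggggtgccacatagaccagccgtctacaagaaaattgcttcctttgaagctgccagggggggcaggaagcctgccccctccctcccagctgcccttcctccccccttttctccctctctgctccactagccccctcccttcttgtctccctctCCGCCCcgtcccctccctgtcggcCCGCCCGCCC

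The *Aspn* window held 30% G and C bases and the *Bgn* window 64.4%, beside a median of 52.4% over 32851 such windows. TATAAA occurred in the windows of *Aspn* (at -207 and -178 from the start) and *Ogn* (overlapping matches at -229 and -227), and in 12.4% of all windows. CCAAT occurred in the *Aspn* window and in 33.8% of all windows. GGGCGG occurred 3 times within the last 34 bases before the *Bgn* start (at -34, and overlapping at -10 and -6) and in 32.7% of all windows. TGACTCA, the binding sequence of AP-1 factors, CACGTG (E-box) and GTCTAGAC (SMAD element) were also searched and were in none of the 4 windows. They were in 4.46%, 6.02% and 0.167% of all windows. The *Fmod* window held none of the 6 motifs.

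*Bgn* and *Dcn* made up most of the family in every library, between 89.0% and 97.4% of the UMIs of the 7 genes. Levels are UMIs summed over the cells of a library and given in CPM. A UMI is counted once per captured RNA, so the level of a gene does not scale with transcript length as a read count does. Per the Methods introns were counted too, and ratios between libraries shifted with gene span, as given below. The 7 genes together reached 2781 CPM in iWAT_DFAT, 1302 CPM in eWAT_DFAT, 2118 CPM in iWAT_ASPC and 1876 CPM in eWAT_ASPC.

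*Bgn*, whose product binds collagen and, once released from the matrix, Toll-like receptors, had 973 CPM (969 to 978) in iWAT_DFAT, 1013 CPM (1009 to 1018) in eWAT_DFAT, 1773 CPM (1767 to 1779) in iWAT_ASPC and 1371 CPM (1366 to 1376) in eWAT_ASPC. It was higher in both ASPC libraries than in both DFAT libraries, and it was the leading gene of the family in 3 of the 4 libraries. A *Bgn* UMI was found in 97.8% to 98.9% of the cells.

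*Dcn*, whose product binds collagen and TGF-β, had 1687 CPM (1681 to 1693) in iWAT_DFAT, 255 CPM (253 to 258) in eWAT_DFAT, 181 CPM (180 to 183) in iWAT_ASPC and 299 CPM (296 to 301) in eWAT_ASPC. The iWAT_DFAT library thus stood apart from the other 3, which lay within 181 to 299 CPM. After each cell was thinned to 5000 UMIs, a *Dcn* UMI was left in 92.0% of iWAT_DFAT cells, 47.5% of eWAT_DFAT cells, 45.8% of iWAT_ASPC cells and 59.8% of eWAT_ASPC cells. At full depth these shares were 98.6%, 78.8%, 77.3% and 88.9%.

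*Prelp* had 60.1 CPM (59.0 to 61.2) in iWAT_DFAT, 7.98 CPM (7.58 to 8.396) in eWAT_DFAT, 37.9 CPM (37.0 to 38.7) in iWAT_ASPC and 107 CPM (106 to 109) in eWAT_ASPC. *Ogn*, which takes part in collagen fibril formation, had 40.5 CPM (39.6 to 41.5), 14.8 CPM (14.2 to 15.3), 69.4 CPM (68.2 to 70.5) and 50.6 CPM (49.6 to 51.6) in the same order. Both genes were lowest in eWAT_DFAT, and the ASPC library of the highest level was eWAT_ASPC for *Prelp* and iWAT_ASPC for *Ogn*.

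*Aspn*, whose product binds collagen and TGF-β1, had 4.13 CPM (3.84 to 4.44) in iWAT_DFAT, 2.60 CPM (2.38 to 2.85) in eWAT_DFAT, 34.3 CPM (33.5 to 35.1) in iWAT_ASPC and 8.06 CPM (7.67 to 8.47) in eWAT_ASPC. *Fmod*, whose product binds collagen and the cross-linking enzyme lysyl oxidase, had 5.83 CPM (5.49 to 6.19), 2.37 CPM (2.15 to 2.60), 17.8 CPM (17.3 to 18.4) and 19.7 CPM (19.1 to 20.3). *Lum*, best known from the cornea, had 9.94 CPM (9.49 to 10.4), 5.65 CPM (5.31 to 5.999), 3.88 CPM (3.61 to 4.17) and 20.5 CPM (19.9 to 21.1). These 3 genes were sparse: a UMI was found in 3.91% to 32.7% of cells for *Aspn*, 5.24% to 29.0% for *Fmod* and 6.40% to 25.2% for *Lum*. Neighbouring libraries in the order of a gene had intervals that did not overlap for each of the 7 genes, but culture-to-culture spread was not measured, so that small steps such as that of *Bgn* between the DFAT libraries cannot be read as a difference between depots.

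**Figure D1:**
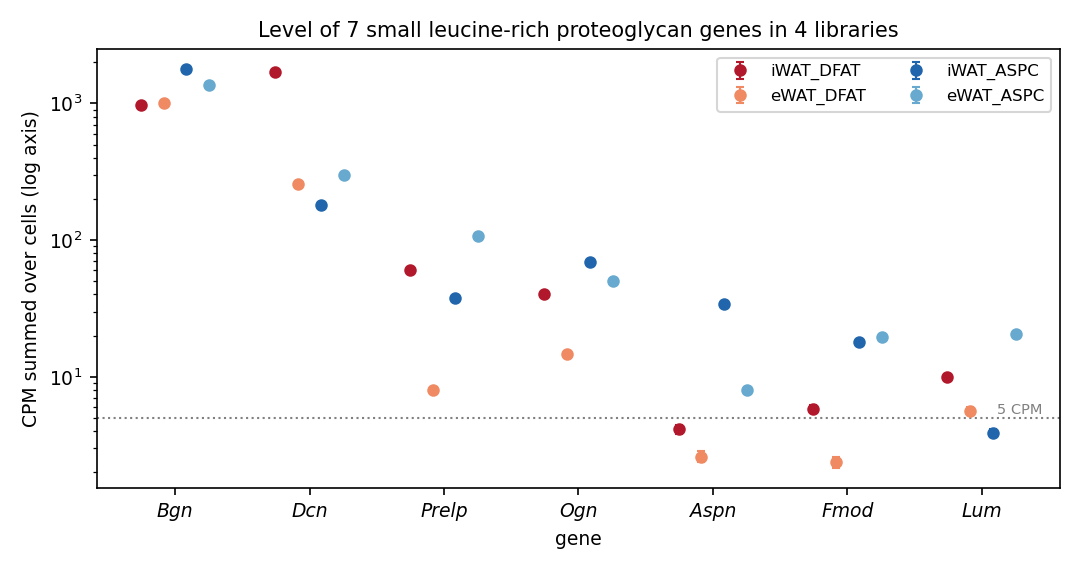
Level of each gene in each library, in CPM on a log axis, with 95% Poisson intervals that are mostly smaller than the points; the dotted line is at 5 CPM. *Bgn* lay between 973 and 1773 CPM, *Dcn* reached 1687 CPM in iWAT_DFAT and at most 299 CPM in the others, and *Aspn*, *Fmod* and *Lum* stayed at or under 34.3 CPM.

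Free RNA adds UMIs of abundant genes to every droplet. In droplets with 1 to 100 UMIs, the level of the 7 genes was 0.626 to 1.61 times that in the cells, beside a median of 0.909 to 1.004 over all genes. Endothelial-like cells, which are not known as a main source of *Dcn*, were set beside the ASPC-like cells of the same library: a *Dcn* UMI was found in 18.8% of the 144 such cells of eWAT_DFAT (median 11392 UMIs) and in 83.9% of ASPC-like cells there (median 27480 UMIs). In eWAT_ASPC the shares were 31.3% of 134 endothelial-like cells (median 14664 UMIs) and 95.2% of ASPC-like cells (median 27169 UMIs). In iWAT_DFAT they were 57.9% of 19 endothelial-like cells (median 17280 UMIs) and 98.7% of ASPC-like cells (median 20309 UMIs), and in iWAT_ASPC 30.4% of 56 endothelial-like cells (median 15911.5 UMIs) and 81.1% of ASPC-like cells (median 23676 UMIs). As levels, *Dcn* in endothelial-like beside ASPC-like cells had 364 beside 2029 CPM in iWAT_DFAT, 52.7 beside 295 CPM in eWAT_DFAT, 139.5 beside 205 CPM in iWAT_ASPC and 59.2 beside 309 CPM in eWAT_ASPC. The levels were thus closest in iWAT_ASPC, where the part of free RNA in the *Dcn* level of ASPC-like cells was not tested. For *Bgn*, 55.6% and 68.7% of the endothelial-like cells of eWAT_DFAT and eWAT_ASPC held a UMI, beside 99.97% of ASPC-like cells in both libraries. *Lum* was found in 0.694% and 2.99% of them, beside 10.8% and 32.6% of ASPC-like cells. In the other direction, *Aspn* was found in 6.25% of the endothelial-like cells of eWAT_DFAT and in 3.46% of the ASPC-like cells, and in iWAT_DFAT in 10.5% of 19 endothelial-like and 5.06% of ASPC-like cells. Of the 209 *Aspn* UMIs in ASPC-like cells of eWAT_DFAT, 115 lay in 1 cluster of 81 cells. The *Aspn* level in droplets with 1 to 100 UMIs was 4.18 CPM in eWAT_DFAT and 4.28 CPM in iWAT_DFAT, above the 2.23 and 3.02 CPM of the ASPC-like cells there.

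The balance of decorin and biglycan, the 2 closest relatives among the abundant genes, differed between iWAT_DFAT and the other libraries. There were 1.73 *Dcn* UMIs per *Bgn* UMI (1.72 to 1.74) in iWAT_DFAT, 0.252 (0.249 to 0.254) in eWAT_DFAT, 0.102 (0.101 to 0.103) in iWAT_ASPC and 0.218 (0.216 to 0.220) in eWAT_ASPC. Single cells showed the same: 63.4% of iWAT_DFAT cells (62.3% to 64.5%) held more *Dcn* than *Bgn* UMIs, against 5.77% in eWAT_DFAT, 0.498% in iWAT_ASPC and 6.11% in eWAT_ASPC. In cells with at least 10 UMIs of the pair, the median share of *Dcn* was 60.7% in iWAT_DFAT, 11.1% in eWAT_DFAT, 6.29% in iWAT_ASPC and 13.0% in eWAT_ASPC. Within the ASPC-like cells kept for comparison (described with the clusters below) these medians were 65.1%, 12.5%, 8.47% and 14.3%. Since both genes are counted in the same cell, this balance does not depend on the scaling to total UMIs.

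**Figure D2:**
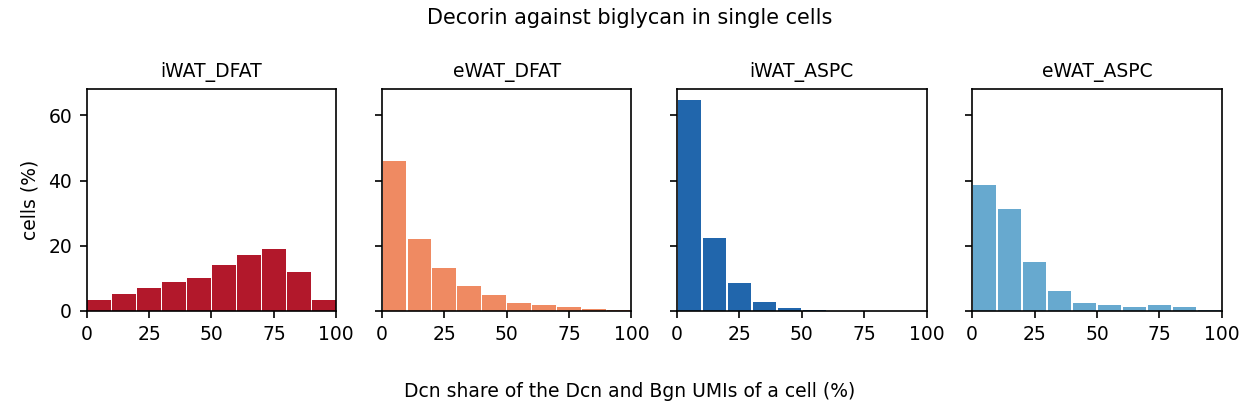
Share of *Dcn* among the *Dcn* and *Bgn* UMIs of single cells with at least 10 such UMIs, as a percentage of the cells of each library in bins of 10%. Most iWAT_DFAT cells lay above 50% (median 60.7%), whereas 46.0% of eWAT_DFAT, 64.9% of iWAT_ASPC and 38.8% of eWAT_ASPC cells lay below 10%.

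The depots were compared first among DFAT cells. Of the 6 genes at 5 CPM or more in the higher library, 4 were at least 2-fold higher in iWAT_DFAT than in eWAT_DFAT and none was 2-fold lower. The median log2 ratio was 1.38, beside 0.09 over all 10384 genes at this level. Of all these genes, 12.2% were past 2-fold, 8.29% higher and 3.95% lower. *Prelp* was 7.53-fold higher (7.13 to 7.95), *Dcn* 6.61-fold (6.55 to 6.68), *Ogn* 2.74-fold (2.62 to 2.87) and *Fmod* 2.46-fold (2.20 to 2.75). *Lum* was 1.76-fold higher (1.63 to 1.90) and *Bgn* differed by a log2 ratio of -0.06. *Aspn* stayed below 5 CPM in both libraries.

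Among ASPCs the order of the depots was another. At least 2-fold differences were found for 3 of the 7 genes, 1 higher and 2 lower in iWAT_ASPC than in eWAT_ASPC, with a median log2 ratio of -0.14 beside 0.05 over 10135 genes. Of all genes, 6.88% were past 2-fold, 2.94% higher and 3.94% lower. *Aspn* was 4.26-fold higher in iWAT_ASPC (4.03 to 4.50). *Lum* was 5.28-fold (4.89 to 5.71) and *Prelp* 2.83-fold (2.76 to 2.91) higher in eWAT_ASPC. *Dcn* was 1.65-fold higher in eWAT_ASPC, and *Bgn*, *Ogn* and *Fmod* had log2 ratios of 0.37, 0.45 and -0.14. *Dcn*, *Lum* and *Prelp* were thus higher in iWAT among DFAT cells and higher in eWAT among ASPCs, a contrast that rests on 4 libraries and was not tested.

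DFAT cells were then compared with ASPCs of the same depot. In iWAT, 2 of the 7 genes were at least 2-fold higher in DFAT cells and 2 at least 2-fold lower, with a median log2 ratio of -0.78 beside 0.09 over 10426 genes. Of all genes, 15.1% were past 2-fold, 9.91% higher and 5.18% lower. *Dcn* was 9.30-fold (3.20 to 3.23 on the log2 scale) and *Lum* 2.56-fold (2.35 to 2.79) higher in iWAT_DFAT, whereas *Aspn* was 8.30-fold (7.70 to 8.96) and *Fmod* 3.06-fold (2.86 to 3.28) lower. *Bgn* had a log2 ratio of -0.87, *Ogn* of -0.78 and *Prelp* of 0.67.

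In eWAT, none of the 7 genes was at least 2-fold higher in DFAT cells and 5 were at least 2-fold lower, with a median log2 ratio of -1.78 beside 0.07 over 10298 genes. Of all genes, 13.1% were past 2-fold, 6.44% higher and 6.67% lower. *Prelp* was 13.4-fold lower in eWAT_DFAT (12.7 to 14.2), *Fmod* 8.30-fold (7.52 to 9.18), *Lum* 3.63-fold (3.39 to 3.89), *Ogn* 3.42-fold (3.28 to 3.57) and *Aspn* 3.10-fold (2.80 to 3.44). The *Aspn* log2 ratio, -1.63 over all cells, was -2.49 without clusters of other cell types, and 191 of the 483 *Aspn* UMIs of eWAT_DFAT lay in 181 pericyte-like cells. *Bgn* and *Dcn* stayed within 2-fold, with log2 ratios of -0.44 and -0.23. The summed level of the 12 ASPC markers was also lower in eWAT_DFAT (3176 beside 8429 CPM), and its part in these values was not tested. The 4 comparisons share libraries pairwise, so that their values are not independent.

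**Figure D3:**
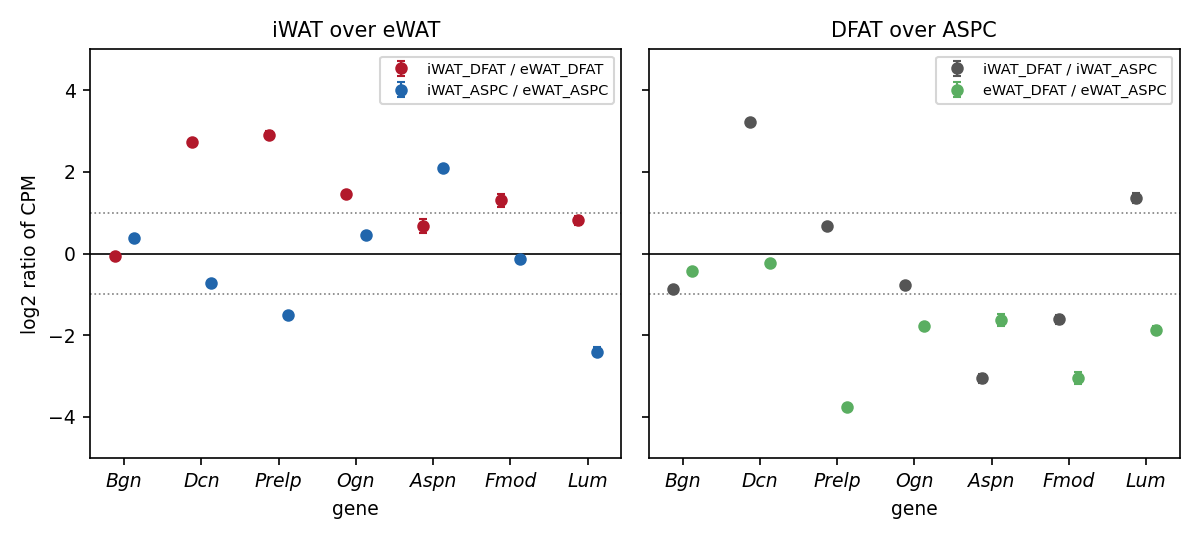
log2 ratios of CPM with 95% intervals for counting error, iWAT over eWAT on the left and DFAT over ASPC on the right; dotted lines mark 2-fold. *Dcn*, *Prelp* and *Lum* lie above 0 between the DFAT libraries and below 0 between the ASPC libraries, and *Aspn*, *Fmod*, *Ogn* and *Bgn* lie below 0 on the right for both depots.

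To see in which cells the genes were counted, each library was clustered on its own without the 7 genes, and clusters were named from marker lists. ASPC-like cells were 46.9% to 62.9% of a library, and most of the remaining cells were named cycling-like from cell cycle genes. To compare the libraries within these 2 classes, clusters whose 10 leading genes held more markers of another class than of their own were left out, a step added after the data were seen. It removed 383 ASPC-like cells of iWAT_DFAT (5.02% of the library), 883 of eWAT_DFAT (13.7%) and 1297 of iWAT_ASPC (17.5%), and 715 cycling-like cells of eWAT_ASPC (10.6%). The only such markers were *Krt19*, *Plin1*, *Myh11* and *Cspg4*, in this order, with no marker of the own class among the leading genes. A share of 0.93 of the cycling markers was 2-fold higher in the 715 cells, so removal does not mean that cells were misnamed. Within the ASPC-like cells that were kept, 27 of the 28 log2 ratios of the 7 genes in the 4 comparisons had the same sign as over whole libraries, and 25 lay on the same side of 2-fold. The ratio of *Dcn* was 2.69 between the DFAT libraries and 3.07 between iWAT_DFAT and iWAT_ASPC, and that of *Prelp* was -3.83 between eWAT_DFAT and eWAT_ASPC. The sign of *Dcn* between eWAT_DFAT and eWAT_ASPC depended on the cells. The ratio was -0.23 over all cells, 0.05 in the kept ASPC-like and 0.06 in the kept cycling-like cells. With no clusters left out it was -0.06 in ASPC-like and 0.19 in cycling-like cells. In the kept ASPC-like cells, *Fmod* between the DFAT libraries (0.82) and *Lum* between iWAT_DFAT and iWAT_ASPC (0.95) came within 2-fold. There *Ogn* between iWAT_DFAT and iWAT_ASPC (-1.04) went past it. Over all ASPC-like cells these ratios were 1.21, 1.18 and -0.70, each on the same side of 2-fold as over whole libraries. In the kept cycling-like cells 27 of 28 ratios had the same sign and 26 the same side of 2-fold, the exceptions being *Fmod* (0.95) and *Aspn* (1.64) between the DFAT libraries. That *Aspn* ratio was 0.20 in the kept ASPC-like cells, with an interval from -0.07 to 0.47 that leaves its sign open. Over all ASPC-like cells it was 0.44 (0.18 to 0.70). The ratio of *Aspn* also moved between DFAT cells and ASPCs, from -3.05 over all cells to -4.00 in kept ASPC-like and -3.67 in kept cycling-like cells in iWAT, and from -1.63 to -1.75 and -3.35 in eWAT.

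Each of the 7 genes was lower in the kept cycling-like than in the kept ASPC-like cells in every library. The log2 ratio was -0.59 to -0.71 for *Dcn* and -0.07 to -0.20 for *Bgn*, and no interval held 0. With all cells of both classes the genes were lower in cycling-like cells too, at -0.44 to -0.74 for *Dcn* and -0.06 to -0.29 for *Bgn*, but the interval of *Fmod* in eWAT_DFAT held 0 (-0.06, from -0.35 to 0.22). At the finer resolution, where no clusters were left out, that of *Fmod* in iWAT_DFAT did (-0.04, from -0.24 to 0.16). But there 352 of the ASPC-like cells formed a cluster led by cell cycle genes such as *Cenpa* and *Ccnb2*. In eWAT_DFAT 715 cells led by histone genes such as *Hist1h1b* were named ASPC-like at that resolution, and 653 cells were named cycling-like.

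The levels of ASPC-like cells in single libraries, above and below, are over all clusters of that name, those left out of the ratios included. In the kept clusters alone they were 0.957 to 1.39 times as high.

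*Dcn* was high in most cells of iWAT_DFAT rather than in a small group. Over the 7 clusters there with at least 50 cells it ran from 1048 to 2928 CPM, above every such cluster of eWAT_DFAT (41.8 to 976 CPM) and of iWAT_ASPC (32.8 to 288 CPM). Clusters of eWAT_ASPC ran from 56.3 to 1182 CPM, the highest being mesothelial-like, so the ranges overlapped there. The highest level of iWAT_DFAT was in a cluster of 2657 ASPC-like cells led by interferon-response genes (*Ifit3*, *Ifi44*), *Pi16*, a marker of an early fibroblast state, and the acute-phase gene *Saa3*. In eWAT_DFAT, an ASPC-like cluster of 462 cells led by genes such as *Ccl19*, *Cxcl13*, *Sfrp2* and *Saa3* reached 970 CPM, beside 295 CPM over all ASPC-like cells, and it also held the highest *Lum* level of that library, 28.0 CPM.

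In the epididymal libraries *Dcn* was also high in mesothelial-like cells, the lining of the visceral depot, named by all 11 mesothelial markers. It reached 976 CPM (933 to 1021) in 80 such cells of eWAT_DFAT, beside 295 CPM in ASPC-like cells, and 1182 CPM (1163 to 1202) in 490 such cells of eWAT_ASPC, beside 309 CPM. The same cells were low in *Bgn*, with 454 and 779 CPM beside 1053 and 1551 CPM in ASPC-like cells. *Prelp* was low there too, with 2.03 and 25.4 CPM beside 8.37 and 142 CPM.

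In the DFAT libraries *Aspn* was high in small groups of cells. In iWAT_DFAT it had 67.6 CPM (59.7 to 76.2) in 171 smooth muscle-like cells, which also express *Postn* and *Thbs4*, beside 3.02 CPM in ASPC-like cells. At a finer resolution, with 247 such cells, it had 47.5 CPM. The 171 cells also carried ASPC markers: 11 of 12 were found in at least 50% of them, beside 2 of the 9 smooth muscle markers. In these cells 6 markers of each list were 2-fold higher. The smooth muscle name was thus given in the library with the lowest summed level of smooth muscle markers, 713 CPM, to cells that also hold ASPC markers. No cluster of eWAT_DFAT was named smooth muscle-like at the main resolution, whereas clusters of 829 and 563 cells were at the finer one, the latter with as high a share of cycling as of smooth muscle markers. Together they had 0.827 CPM of *Aspn* beside 2.00 CPM in ASPC-like cells. In eWAT_DFAT *Aspn* had 55.1 CPM in 181 pericyte-like cells, led by *Rgs5*, beside 2.23 CPM in ASPC-like cells. These 181 cells also met the smooth muscle rule, with a share of 0.67 of its markers, as did the 171 cells of iWAT_DFAT. They were named from the larger share of pericyte markers, 0.80. ASPC-like clusters of 54 cells in iWAT_DFAT and 81 cells in eWAT_DFAT, both led by the osmolyte transporter gene *Slc6a12*, the aldose reductase gene *Akr1b3* and *Prss35*, held 33.6 and 64.4 CPM. In iWAT_ASPC the highest level, 118 CPM (106 to 131), was in 129 unnamed cells led by skeletal muscle genes (*Myl1*, *Ttn*, *Tnnc2*). A share of 0.60 of the pericyte markers was 2-fold higher in this cluster, but it stayed unnamed because none was among its 10 leading genes. At the finer resolution this cluster came apart: 12 cells led by those muscle genes held 77.3 CPM (44.2 to 125), and 115 cells, named ASPC-like and led by *Heyl*, *Col15a1* and *Col10a1*, held 123 CPM (110 to 137). A larger ASPC-like cluster there, 1346 cells in which *Aspn* and *Ogn* were themselves among the 10 leading genes beside *Robo2* and *Dkk2*, held 93.2 CPM of *Aspn* and 178 CPM of *Ogn*. In eWAT_ASPC the smooth muscle-like cells had 12.9 CPM of *Aspn* beside 9.18 CPM in ASPC-like cells.

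*Fmod* and *Prelp* had other sites. *Fmod* reached 68.6 CPM (58.1 to 80.4) in 148 glial-like cells of iWAT_ASPC, beside 18.3 CPM in ASPC-like cells, and 29.99 CPM in the smooth muscle-like cells of iWAT_DFAT, beside 5.81 CPM. In eWAT_ASPC its highest level, 51.4 CPM (46.6 to 56.6), was in a cluster of 277 ASPC-like cells, beside 24.3 CPM over all ASPC-like cells. *Prelp* reached 95.7 CPM (81.9 to 111) in the 94 adipocyte-like cells of eWAT_DFAT, beside 8.37 CPM in ASPC-like cells, but had 18.9 CPM in the 49 adipocyte-like cells of iWAT_DFAT, beside 72.3 CPM. At the finer resolution no cluster of iWAT_DFAT bore that name, but 1 of 311 cells, named ASPC-like, was led by adipocyte genes such as *Cfd*, *Plin1* and *Adipoq*, and 5 of the 10 adipocyte markers were 2-fold higher in it, where more than 50% were needed for the name. In eWAT_ASPC the *Prelp* level was highest, 194 CPM, in a cluster of 1104 ASPC-like cells led by interferon-response genes.

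**Figure D4:**
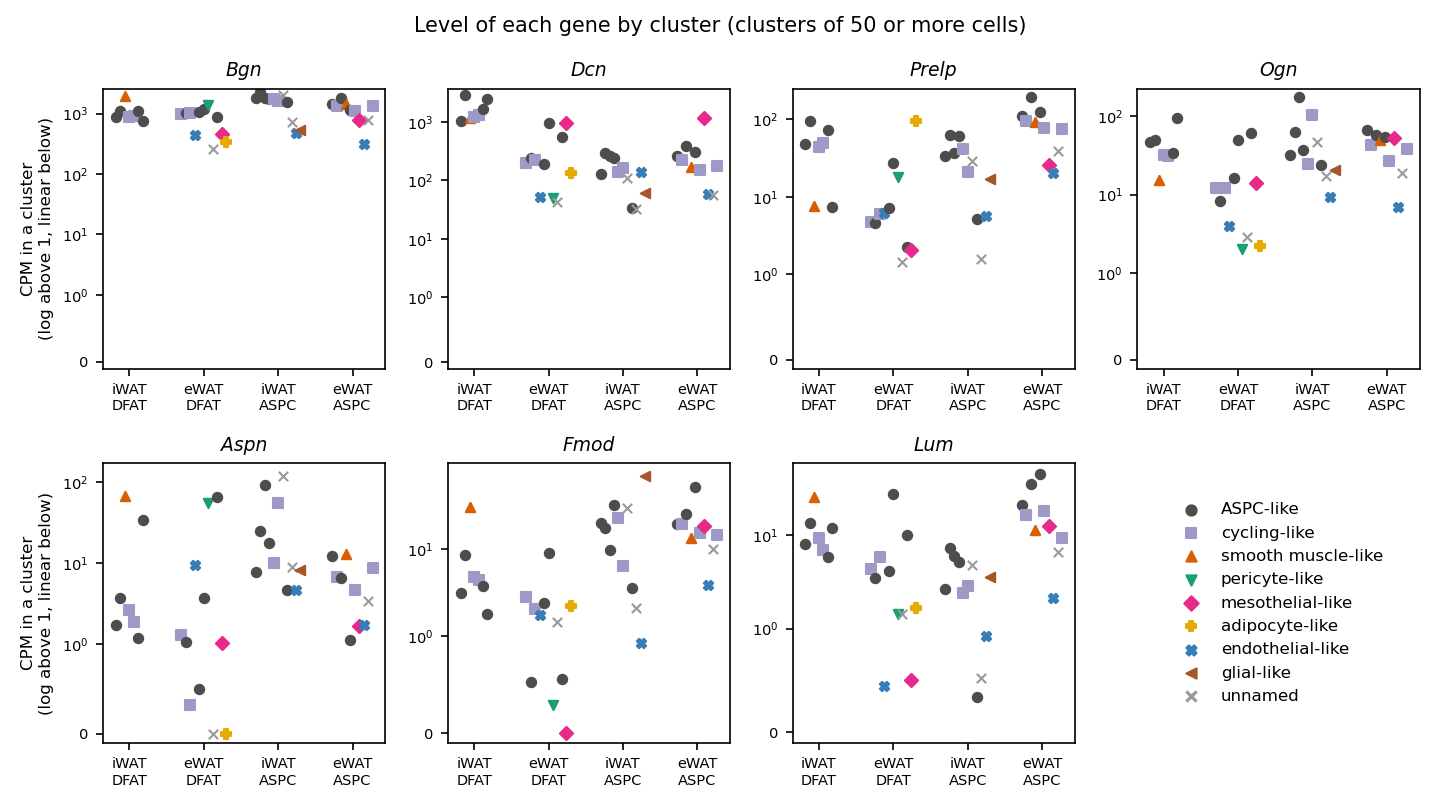
Level of each gene in every cluster of at least 50 cells, in CPM (log scale above 1, linear below), by library; symbols give the name of the cluster. *Dcn* is high in all iWAT_DFAT clusters (1048 to 2928 CPM) and in the mesothelial-like clusters of both eWAT libraries, and the highest *Aspn* levels (33.6 to 118 CPM) lie in smooth muscle-like, pericyte-like and small ASPC-like clusters of DFAT cells and in 3 clusters of iWAT_ASPC.

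Over the cells of a library, the 21 pairs of genes were weakly correlated. The highest mean of Pearson's r over the 4 libraries was that of the neighbours *Dcn* and *Lum*, 0.31 (0.20 to 0.37), followed by 0.27 for *Dcn* and *Prelp*. *Ogn* and *Aspn*, also neighbours, had 0.21 (0.06 to 0.50), with the highest value in iWAT_ASPC, and *Fmod* and *Prelp* had 0.14. After thinning to 5000 UMIs the mean of *Dcn* and *Lum* was 0.18. These values share the depth of the cells, and in sparse counts an r of this size is no finding. Over 5119 other genes at 20 CPM or more in every library, those most like *Dcn* were the fibrillar collagen gene *Col3a1* (mean r 0.49), the complement inhibitor gene *Serping1* (0.46) and *Col1a2* (0.40). Those most like *Bgn* were *Serpinf1* (0.56), which codes for a secreted serpin, *Sparc* (0.53), which codes for a collagen-binding protein, and the fibulin gene *Fbln2* (0.51). The summed level of the 7 genes was followed most closely over the 4 libraries by *Ece1*, *Bcl9l* and *Mycbp2*, with 4 points only.

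The rest of the family was low. Of 11 other SLRP genes, only *Tsku* (3.88 to 8.50 CPM) and *Podn* (1.30 to 7.52 CPM) reached 5 CPM in a library. The corneal gene *Kera*, next to *Lum*, had 1 UMI in each iWAT library and none in the eWAT libraries, which at a floor of 3 UMIs allows up to 0.0162 CPM in eWAT_DFAT. *Podn* was more than 2-fold lower in DFAT cells than in ASPCs in both depots, with log2 ratios of -1.27 in iWAT and -2.27 in eWAT.

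Genes that build the chondroitin and dermatan sulfate chains of decorin and biglycan were mostly within 2-fold. Of 22 such genes at 5 CPM or more, 5 were at least 2-fold higher in iWAT_DFAT than in eWAT_DFAT and none lower, beside 8.29% and 3.95% of all genes, with a median log2 ratio of 0.54 beside 0.09. The chain-initiating enzyme gene *Csgalnact1* had 334 CPM beside 93.1 CPM, the uronyl sulfotransferase gene *Ust* 96.4 beside 32.7 CPM, the xylosyltransferase gene *Xylt1* 26.9 beside 10.8 CPM and the epimerase gene *Dsel* 35.2 beside 14.4 CPM. Against iWAT_ASPC, 6 of 22 were at least 2-fold higher in iWAT_DFAT and none lower, beside 9.91% and 5.18% of all genes, led by *Ust* (18.2 CPM in iWAT_ASPC) and the sulfotransferase gene *Chst11* (189 beside 49.8 CPM). In eWAT, 1 of 21 was higher and 1 lower in DFAT cells, near the 6.44% and 6.67% of all genes. These were *Chst11* (a 4.23-fold difference, with 23.9 CPM in eWAT_ASPC) and *Chst12* (22.1 beside 59.1 CPM). Between the ASPC libraries 1 of 22, *Chst11*, was past 2-fold, higher in iWAT_ASPC, also near the 2.94% of all genes.

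Of 10 genes for keratan sulfate and for the sulfation of tyrosines, as found on fibromodulin, 6 or 7 were measured at 5 CPM. At least 2-fold higher in iWAT were 2 of 6 among DFAT cells and 1 of 6 among ASPCs, beside 8.29% and 2.94% of all genes, and none was lower. In iWAT, 1 of 7 was higher and 1 lower in DFAT cells, beside 9.91% and 5.18% of all genes. In eWAT, 2 of 7 were higher and 1 lower, beside 6.44% and 6.67%. The keratan sulfate sulfotransferase gene *Chst1* had 23.0 CPM in iWAT_DFAT, 7.89 CPM in eWAT_DFAT, 2.29 CPM in iWAT_ASPC and 3.55 CPM in eWAT_ASPC. The galactosyltransferase gene *B4galt4* was lower in DFAT cells than in ASPCs, with log2 ratios of -1.47 in iWAT and -1.76 in eWAT.

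Of 16 collagens and matrix partners of SLRPs, 7 were at least 2-fold higher in iWAT_DFAT than in eWAT_DFAT and none lower, beside 8.29% and 3.95% of all genes, with a median log2 ratio of 0.92 beside 0.09. Among them were the fibrillar collagen genes *Col3a1* (1147 beside 315 CPM) and *Col1a2* (2298 beside 902 CPM) and the collagen VI gene *Col6a1* (292 beside 104 CPM), each of them also an ASPC marker. Of 17 genes, 10 were at least 2-fold lower in eWAT_DFAT than in eWAT_ASPC and none higher, beside 6.67% and 6.44% of all genes, among them *Col14a1* (5.11 beside 55.5 CPM), the elastin gene *Eln* (0.453 beside 13.5 CPM), *Ccn4* (28.6 beside 203 CPM) and the lysyl oxidase gene *Lox* (352 beside 1365 CPM). In iWAT, 3 of 17 were higher and 5 lower in DFAT cells, beside 9.91% and 5.18% of all genes, with *Eln* at 2.12 beside 42.7 CPM and *Tnxb*, the tenascin-X gene, at 8.47 beside 2.03 CPM. Between the ASPC libraries 3 of 16 were higher and 1 lower in iWAT_ASPC, beside 2.94% and 3.94% of all genes, the latter being *Col14a1* (7.01 beside 55.5 CPM).

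Proteases that cut SLRPs differed in both directions. Their list also holds *Pcolce*, which codes for an enhancer of procollagen cleavage and not for a protease. Of 13 genes, 6 were at least 2-fold higher and 2 lower in iWAT_DFAT than in eWAT_DFAT, beside 8.29% and 3.95% of all genes. *Mmp9* had 32.6 beside 4.92 CPM and *Mmp2* 223 beside 44.8 CPM, whereas *Tll1*, of the family that matures biglycan, had 4.44 beside 48.2 CPM. Against iWAT_ASPC, 6 of 12 were higher and 2 lower in iWAT_DFAT, beside 9.91% and 5.18% of all genes, with *Mmp3* at 426 beside 21.6 CPM. In eWAT, 4 of 12 were higher and 3 lower in DFAT cells, beside 6.44% and 6.67% of all genes, with *Mmp3* at 179 beside 19.7 CPM and *Adamts5*, an aggrecan-cutting enzyme gene, at 86.6 beside 780 CPM. Between the ASPC libraries, 1 of 11 was higher (*Tll1*, 36.5 beside 16.2 CPM) and 1 lower (*Adamts4*, 5.92 beside 14.0 CPM) in iWAT_ASPC, beside 2.94% and 3.94% of all genes.

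Of the growth factors and receptors that SLRPs bind, 1 of 13 was at least 2-fold higher in iWAT_DFAT than in eWAT_DFAT (*Tlr2*, 5.87 beside 2.07 CPM), near the 8.29% of all genes, and 1 of 13 was lower in iWAT_ASPC than in eWAT_ASPC (*Bmp4*), beside 3.94% of all genes. Between iWAT_DFAT and iWAT_ASPC 4 of 14 were higher and 3 lower, beside 9.91% and 5.18% of all genes, and 2 of 13 were lower in eWAT_DFAT than in eWAT_ASPC, beside 6.67%. *Bmp4* had 0.327 CPM in iWAT_DFAT, 1.07 CPM in eWAT_DFAT, 10.7 CPM in iWAT_ASPC and 53.8 CPM in eWAT_ASPC, and *Tgfb3* had 11.01, 13.5, 50.3 and 57.8 CPM in the same order, both being lower in the DFAT libraries. *Egfr*, a receptor that decorin binds, had 468 CPM in iWAT_DFAT beside 177 CPM in iWAT_ASPC. Other proteoglycans went both ways. Of 15 genes, 5 were past 2-fold between the DFAT libraries (4 higher and 1 lower in iWAT_DFAT, beside 12.2% of all genes), 5 between the ASPC libraries (3 higher and 2 lower in iWAT_ASPC, beside 6.88%) and 9 between the iWAT libraries (6 higher and 3 lower in DFAT cells, beside 15.1%). Of 13 genes, 5 were past 2-fold between the eWAT libraries (2 higher and 3 lower in DFAT cells, beside 13.1%). *Prg4*, the lubricin gene, had 36.6 CPM in iWAT_DFAT beside 3.36 CPM in eWAT_DFAT, and the glypican gene *Gpc4* was lower in DFAT cells in both depots (19.7 beside 135 CPM in iWAT, 27.5 beside 159 CPM in eWAT).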

How the data were processed

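The deposited values are raw UMI counts per gene and barcode, made by the authors with Cell Ranger (7.0.0 in the Methods and in the submitters' processing notes) on mm10, with introns included per the Methods. The file headers name version 7.1.0, and 4 for iWAT_ASPC, so whether introns were counted in the same way there is not known, which bears on each ratio with iWAT_ASPC. From the genes of shortest to those of longest span, the median log2 ratio of iWAT_ASPC over eWAT_ASPC ran from -0.01 to 0.11. The counting of introns itself was not tested. The Methods then used CellBender, DoubletFinder and a lower limit of 500 UMIs, which leaves 7796, 6988, 7843 and 7353 barcodes here (iWAT_DFAT, eWAT_DFAT, iWAT_ASPC, eWAT_ASPC) of 1599387 to 1930796 in the files; CellBender and DoubletFinder were not run. Cells held 183664704 to 199357348 UMIs per library. Scrublet marked 0 to 3 cells per library at its own threshold, which did not work, so doublets were kept.

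Counts were summed over cells and scaled to 1000000 UMIs. Levels carry exact Poisson, shares exact binomial (Clopper-Pearson) and ratios exact conditional binomial 95% intervals. Cells were thinned by hypergeometric draws to 5000 UMIs, which leaves out none. Each library was clustered without the 7 genes with scanpy 1.11.5 (2000 variable genes, 30 components, 20 neighbours, Leiden resolution 0.5). A cluster was named when more than 50% of a type's markers, at least 3, were 2-fold higher and found in at least 10% of its cells; otherwise it was ASPC-like when at least 3 of 12 ASPC markers were found in at least 50%. A name also required 1 marker of its type among the 10 leading genes, except for ASPC-like and cycling-like cells, and clusters of low median UMIs stayed unnamed. These naming rules were set after the clusters were seen, as was the removal of ASPC-like and cycling-like clusters with more markers of another class among their 10 leading genes. The members and lists were chosen with earlier results of these data known.

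Besides the 7 members, named genes are the up to 4 per list and comparison with the largest ratio past 2-fold, and the 3 most like *Dcn*, *Bgn* and the summed members; genes that lead clusters, and further levels of *Tsku*, *Kera* and other named genes, were chosen after their values were seen. The code for ratios and thinning was checked on simulated counts, which is no test of differences between libraries. Python 3.11.15, numpy 2.4.6, scipy 1.17.1 and pandas 2.3.3 were used.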

Additional observations from a re-analysis of the deposited data

Results flagged for a closer look

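The log2 ratio of the depots had opposite signs in DFAT cells and ASPCs for *Dcn*, *Lum* and *Prelp*, with intervals for counting error that left out 0 on both sides. The differences were not tested, since each condition has 1 library. The ratio of iWAT over eWAT was 2.73 among DFAT cells and -0.72 among ASPCs for *Dcn*, a difference of 3.44. Between the ASPC libraries it was -0.34 in the kept ASPC-like and -0.43 in the kept cycling-like cells. With no clusters left out it was -0.59 in ASPC-like and -0.29 in cycling-like cells. Of the 59013 *Dcn* UMIs of eWAT_ASPC, 14197 lay in mesothelial-like cells, whose part was not tested. For *Prelp* the ratios were 2.91 and -1.501, a difference of 4.41, and for *Lum* they were 0.82 and -2.40, a difference of 3.22. Signs also differed for *Fmod* (1.30 and -0.14, a difference of 1.44) and *Bgn* (-0.06 and 0.37, a difference of -0.43), but the ratios of -0.14 and -0.06 are near the size of the shifts with gene span given below and are not read as an effect of the depot. The *Bgn* ratio of -0.06 changed sign without cycling-like clusters and as a mean over single cells.

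The effect of DFAT cells over ASPCs had opposite signs in iWAT and eWAT for 3 genes, from the same 4 libraries and with the same differences: 3.22 and -0.23 for *Dcn*, 1.36 and -1.86 for *Lum* and 0.67 and -3.75 for *Prelp*. These were not tested either. The *Dcn* ratio in eWAT was 0.06 once clusters of other cell types were removed, so that its sign depends on which cells are counted.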

How the results depend on the processing

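No paired analysis was possible because each condition has 1 library, and no replicate could be left out. Of 252 log2 ratios of single members under 9 alternatives, 249 kept their direction and 251 their side of 2-fold. All come from the same 4 libraries, and several alternatives could hardly move a ratio. The largest shift was 0.009 at a lower limit of 500 UMIs and 0.014 at a mitochondrial limit of 20%. It was 0.036 without the highest doublet scores and 0.074 without the upper limit on genes. The exceptions in direction were *Bgn* between the DFAT libraries (0.01 both without cycling-like clusters and as a mean over single cells, in place of -0.06) and *Dcn* between the eWAT libraries (0.06 without mesothelial-, endothelial-, pericyte-, glial-, adipocyte- and immune-like clusters, in place of -0.23). *Aspn* between the DFAT libraries went past 2-fold without those clusters, with smooth muscle-like cells kept (1.44 in place of 0.67), at levels below 5 CPM, and between the eWAT libraries it was -2.49 in place of -1.63. Within the kept ASPC-like cells the *Aspn* ratio between the DFAT libraries was 0.20 (-0.07 to 0.47), and over all ASPC-like cells 0.44 (0.18 to 0.70). The count of members past 2-fold moved by over 1.5 times only at a 1.5-fold limit between iWAT_DFAT and iWAT_ASPC (7 in place of 4). Without the filter at 5 CPM, the share of all genes past 2-fold was 33.1%, 29.7%, 35.3% and 36.9% in the order of the comparisons. Thinned to 5000 UMIs, the number of members found in at least 50% of cells was 1 in place of 2 in eWAT_DFAT, 1 in place of 3 in iWAT_ASPC and 2 in place of 4 in eWAT_ASPC, and the mean r was 0.18 for *Dcn* and *Lum*, 0.16 for *Dcn* and *Prelp* and 0.13 for *Dcn* and *Bgn* (0.31, 0.27 and 0.21 at full depth). At a Leiden resolution of 1, the log2 ratio of *Aspn* in smooth muscle-like over ASPC-like cells of iWAT_DFAT was 4.01 in place of 4.48, and the other 5 ratios recomputed (*Dcn* in mesothelial-like cells of both eWAT libraries, *Aspn* in pericyte-like and *Prelp* in adipocyte-like cells of eWAT_DFAT, *Fmod* in glial-like cells of iWAT_ASPC) stayed within their intervals. The names of clusters changed too: at that resolution the adipocyte-led cluster of iWAT_DFAT (311 cells) fell just short of the adipocyte name, and 1392 cells of eWAT_DFAT, 563 of them also high in cycling markers, were smooth muscle-like, with a log2 ratio of *Aspn* over ASPC-like cells of -1.28. In the ASPC-like or cycling-like clusters kept for comparison, an alternative chosen after seeing the data, 54 of 56 ratios kept their direction and 51 their side of 2-fold. Long genes had higher ratios than short ones in all 4 comparisons: from the fifth of genes with the shortest span to the fifth with the longest, the median log2 ratio ran from -0.07 to 0.25 between the DFAT libraries, from -0.01 to 0.11 between the ASPC libraries, from -0.09 to 0.27 between the iWAT libraries and from -0.02 to 0.14 between the eWAT libraries. Differences of that size are not read as changes in level in any of them.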
